A study of Mus musculus with 53 samples.

Results

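The response of mouse synovial sarcoma cells to *miR-214* was compared between the lines SS40 and SS64 on 16 of the 53 arrays of the series. Members were the 4 groups of 4 arrays labelled SS40 NC, SS40 *miR-214*, SS64 NC and SS64 *miR-214*, where NC is the negative control transfection, and each value compared was the *miR-214* minus NC change of SS64 less that of SS40. Both lines were cultures of mouse synovial sarcoma from the study's model, in which embryonic mesenchymal cells expressing the fusion oncogene *SS18-SSX1* form tumors in nude mice, and each is 1 line, so a difference between them cannot be told apart from any other difference between these 2 cultures. The paper names its second line SS60 and the arrays name it SS64, and whether these are the same line was not tested. The form of *miR-214*, its dose and the time after transfection were not given in the sources used here, and the arrays did not measure the microRNA itself. Nothing in the labels says that the 4 arrays of a group came from separate cultures, so the spread behind each p-value is that between arrays and may be technical.

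A mature microRNA guides the Argonaute complex to messenger RNAs that pair with its seed, the short stretch near its 5′ end, and lowers their translation and stability. A cell can show a direct effect only on the messages it makes, and later changes pass through whatever the targets control in that cell. The hairpin of *miR-214* lies in the antisense transcript *Dnm3os* on chromosome 1 and gives an arm from each side. The arms are shown because the seed, in capitals, sets which messages can pair, and the sources used here do not say which arm was given (RefSeq, GRCm38.p6, plus strand of chr1, 3p arm at chr1:162223438-162223459 and 5p arm at chr1:162223397-162223418):
mmu-miR-214-3p: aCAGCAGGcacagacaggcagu
mmu-miR-214-5p: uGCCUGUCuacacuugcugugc
Among 1738 mature mouse microRNAs in that table the 3p seed was shared only with the following entry, and the 5p seed with none.
mmu-miR-761: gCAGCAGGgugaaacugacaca

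Levels are given as log2 of the deposited intensity and changes as differences on that scale. Median intensities ranged from 22.7 to 24.2 over the 16 arrays. A floor set at the 20th percentile lay at 12.1, or 3.60 on the log2 scale, so levels near it are background and fold changes of weak genes are compressed. *Tle1* and *Cd99*, genes typical of human synovial sarcoma, had levels of 8.98 and 8.54 in SS40 and of 8.50 and 9.20 in SS64, whereas *Sox2* and *Apod* had levels of 3.84 and 4.47 in SS40 and of 10.74 and 9.75 in SS64. Of 25 such genes 16 were expressed in SS40 and 10 in SS64, against 46.0% and 43.3% of all genes. No marker of mast cells and granulocytes (12) or red cells (4) was expressed in either line, while *Cd14* of 14 macrophage markers and *Fabp4*, *Pparg* and *Retn* of 5 adipocyte markers were expressed in SS40, and 2 of 11 endothelial markers in SS40 and 1 in SS64. No marker differed between the lines in its change. *miR-214* replicate 4 of SS40 stood apart from the other arrays. It carried the largest loading on the second principal component (0.77), its 75th percentile was 97.2 against 110 to 122 elsewhere, and its expressed probe sets deviated from their group means with an SD of 0.397 against 0.0850 to 0.295. NC replicate 2 of SS40 had a 3′ minus 5′ log2 difference of 0.81 for *Actb* against 0.12 to 0.25 on the other 15 arrays. The median SD of an expressed probe set was 0.118 in SS40 NC and 0.179 in SS40 *miR-214*, against 0.0805 and 0.0904 in the SS64 groups.

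The change after *miR-214* differed between the lines in 123 of 17097 genes (0.719% of the genes tested, adjusted p under 0.05, limma with Benjamini-Hochberg adjustment over 45037 probe sets), 56 with the more positive change in SS64 (0.328%) and 67 with the more negative one (0.392%). Over probe sets the count was 203 of 45037 (0.451%), of which 39 had no gene symbol and 6 had several, and 3385 (7.52%) passed at an unadjusted p under 0.05. The genes nearest the threshold were *Cdkn2b* (−0.42, adjusted p = 0.0484, limma) inside and *Mb21d2* (−0.58, adjusted p = 0.0501, limma) outside. Without *miR-214* replicate 4 of SS40 the difference passed in 250 genes, which held all 123. For comparison, 157 genes (0.918%) rose and 406 (2.37%) fell in SS40, and 238 (1.39%) rose and 497 (2.91%) fell in SS64. Over probe sets these changes passed in 1015 (2.25%) in SS40 and 1325 (2.94%) in SS64. In 38 genes the fall and in 11 the rise exceeded 1.5-fold in both lines with no difference that passed. The changes of the lines correlated with r = 0.327 across all probe sets, a description across features that share arrays and are not independent.

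Genes were assigned to 1 line where the change there passed and exceeded 1.5-fold, the change in the other line did not pass, and the difference between the lines passed. The rule left 75 genes, of which 64 fell and 11 rose. In SS40 only, 33 fell (0.193% of genes) and 4 rose (0.0234%), and in SS64 only, 31 fell (0.181%) and 7 rose (0.0409%). The 4 *miR-214* arrays lay apart from the 4 NC arrays of the responding line in all 75, against 10.0% of genes in SS40 and 17.7% in SS64, a count that the rule itself nearly fixes. A change that missed the threshold in the other line is not shown to be absent. There the arrays lay apart in the same direction for 4 of the 31 SS64 fallers and in the opposite direction for 1. For the 33 SS40 fallers they lay apart in the opposite direction for 3. These counts are no result about the fallers, since arrays lay apart either way in 10.0% of all genes in SS40 and 17.7% in SS64. Among the genes named here, 20 with an adjusted p of 0.0170 to 0.0459 lost the call when at least 1 array was left out, namely *Ampd3*, *Arhgap6*, *Car3*, *Cav2*, *Cgref1*, *Col4a5*, *Ddhd2*, *Dusp6*, *Gjc3*, *Gpm6b*, *Igsf11*, *Insig1*, *Mki67*, *Mlph*, *Nfkbiz*, *Npnt*, *Ntm*, *Wdyhv1*, *Wnt4* and *Zscan4a*. In 1 fit of all 53 arrays, whose shared spread includes the tumors, 49 of the 73 named genes with a difference lost the call, among them *C1qtnf3*, *Perp*, *Aqp5*, *Ppbp*, *Gap43*, *Col3a1*, *Id3* and *Deptor*.

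**Figure D1:**
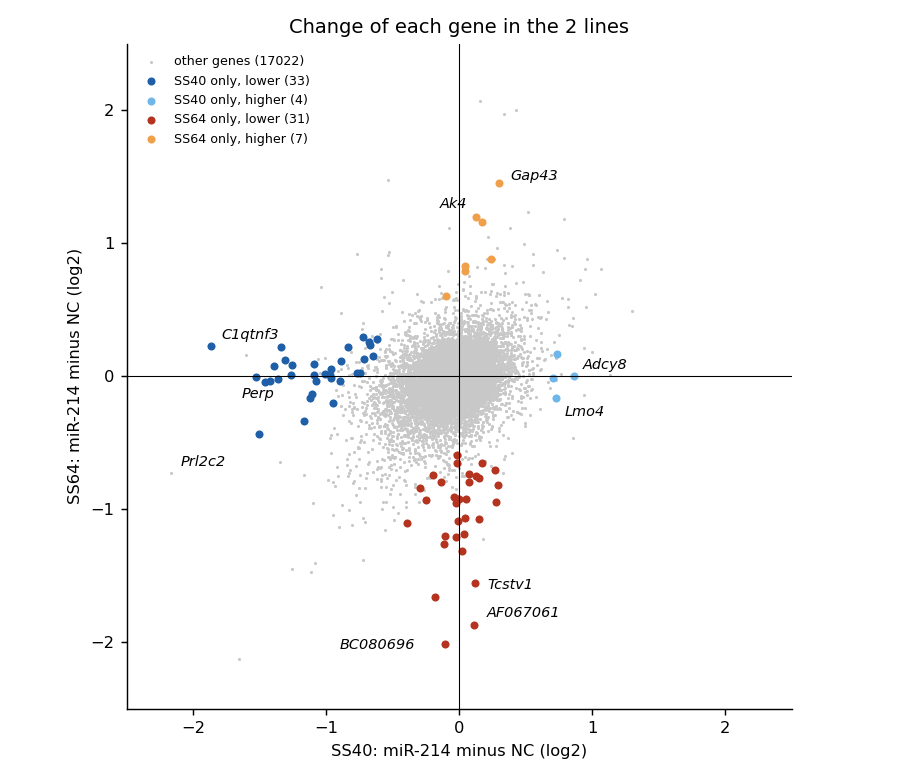
Each point is 1 of 17097 genes, with the *miR-214* minus NC change on the log2 scale in SS40 on the horizontal axis and in SS64 on the vertical axis. The coloured genes are those assigned to 1 line, 33 and 4 along the SS40 axis and 31 and 7 along the SS64 axis, and *C1qtnf3* and *BC080696* lie farthest out among the coloured fallers.

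Of the 33 genes that fell in SS40 only, 18 fell over 2-fold, and the median change was −1.08 in SS40 and 0.02 in SS64. *C1qtnf3*, which encodes a secreted protein of the C1q and TNF-related family, had levels of 7.75, 8.03, 8.07 and 8.03 in SS40 NC and of 6.30, 6.19, 6.56 and 5.36 with *miR-214*. In SS64 it read 2.96, 3.39, 3.00 and 2.80 in NC and 3.45, 2.98, 3.40 and 3.23 with *miR-214*. The SS40 groups did not overlap, the lowest array was replicate 4, and the SS64 values were background in both groups. The change was −1.87 ± 0.20 (SE) in SS40, a 3.65-fold fall, and 0.23 ± 0.20 in SS64, and the difference of 2.10 ± 0.28 passed (adjusted p = 0.00109, limma).

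*Perp*, a p53-induced membrane protein of desmosomes, read 9.41, 9.65, 9.48 and 9.55 in SS40 NC and 7.98, 8.06, 7.90 and 8.04 with *miR-214*. It fell by 1.53 ± 0.13 (SE), or 2.88-fold. Its SS64 means were 3.81 ± 0.27 (SD, n = 4) in NC and 3.80 ± 0.26 with *miR-214*, and the difference between the lines was 1.52 (adjusted p = 0.000708, limma). All arrays of SS40 thus stood far above those of SS64, before and after the fall. *Aqp5*, a water channel of glandular epithelium, read 8.48, 8.74, 8.36 and 8.44 in SS40 NC and 7.43, 7.17, 7.05 and 6.66 with *miR-214*, a 2.69-fold fall, against means of 5.02 and 4.98 in SS64. *Car3*, carbonic anhydrase III, fell 2.54-fold from a mean of 9.83, with replicate 4 at 7.92 and the other 3 arrays at 8.67 to 8.69, and its 3 other probe sets gave differences of −0.01, −0.16 and 0.95 against 1.56 for the brightest.

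*Ppbp*, the platelet basic protein chemokine, read 7.02, 7.05, 7.34 and 7.33 in SS40 NC and 6.02, 5.57, 6.11 and 5.19 with *miR-214*, a 2.76-fold fall with no overlap, and 3.81 to 4.17 on the 8 SS64 arrays. *Ccl9*, a CC chemokine, was measured well above background in both lines and fell only in SS40. It read 8.70, 8.82, 8.74 and 8.84 in SS40 NC and 7.92, 7.87, 8.00 and 8.22 with *miR-214*, whereas the SS64 means were 6.95 ± 0.05 (SD, n = 4) and 6.97 ± 0.07. *Il7*, a cytokine of lymphocyte development, fell 2.63-fold from 6.07 to 4.68. *Angptl7*, a secreted angiopoietin-like protein, fell 2.57-fold from 8.27 ± 0.04 to 6.91 ± 0.14, and *Tnfrsf11b*, the decoy receptor osteoprotegerin, fell 2.18-fold from 7.44 to 6.31. The difference of *Tnfrsf11b* lost its call with the replicate block (adjusted p = 0.0679, limma). The ligands *Pdgfd* (−0.68 ± 0.12) and *Wnt4* (−0.90 ± 0.13) fell in SS40 from NC means of 7.95 and 8.54, and neither was expressed in SS64. *G730013B05Rik*, a transcript of no known role, fell 2.47-fold from 5.92.

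*Gas6* and *Mertk*, a ligand and a receptor of the TAM family of receptor kinases, fell in different lines. *Gas6* read 7.82, 7.71, 7.78 and 7.82 in SS40 NC and 7.03, 6.99, 6.76 and 6.45 with *miR-214*, and its SS64 means were 4.26 and 4.27. *Mertk* read 8.09, 8.05, 7.97 and 7.88 in SS64 NC and 7.51, 7.57, 7.23 and 7.38 with *miR-214*, a change of −0.58 ± 0.12 (SE), and 0.40 ± 0.12 in SS40, where it did not pass (adjusted p = 0.105, limma). The difference was 0.99 for *Gas6* (adjusted p = 0.0153) and −0.97 for *Mertk* (adjusted p = 0.0101, limma). The second probe set of *Gas6* gave −0.11 at a mean level of 4.51. With the replicate number as a block the adjusted p of *Gas6* was 0.0717 (limma). The pair was chosen after its values were seen.

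The rises assigned to SS40 numbered 4, and the 2 strongest signals among them belonged to genes with the higher level in SS64. *Lmo4*, a LIM-only transcription cofactor, read 8.41, 8.27, 8.68 and 8.67 in SS40 NC and 9.02, 9.11, 9.18 and 9.62 with *miR-214*, a rise of 0.73 ± 0.11 (SE). In SS64 it read 10.62, 10.61, 10.52 and 10.55 in NC and 10.46, 10.48, 10.35 and 10.37 with *miR-214*. The SS64 arrays also stood apart, slightly lower with *miR-214*, at an adjusted p of 0.737 (limma), and the difference was −0.89 ± 0.16. *Gfra1*, the co-receptor of the growth factor GDNF, rose by 0.71 ± 0.09 from a mean of 7.19 ± 0.14 in SS40, and was 10.16 ± 0.10 and 10.15 ± 0.06 in SS64. Its other probe sets gave differences of −0.22 and −0.48 against −0.72, and with the mean over probe sets the call was lost (−0.47, adjusted p = 0.0903, limma). *Adcy8*, a calcium-stimulated adenylyl cyclase, rose from 3.99 to 4.85 and was 3.41 in SS64 NC, and *Arhgap6* rose from 5.68 to 6.41 and was 5.69 in SS64 NC.

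The fallers assigned to SS64 held 8 genes known from the cleavage-stage embryo, where a burst of transcription at genome activation switches on families such as *Zscan4*, *Tcstv* and *Usp17l*. The 8 were *AF067061*, *BC080696*, *Tcstv1*, *Usp17la*, *Gm13043*, *D13Ertd608e*, *Gm20767* and *Zscan4a*. They are members of a list of 18 measured genes drawn up after their values were seen, so the count follows from that choice. Over all genes 0.181% met the rule. *Tcstv1* read 4.77, 4.46, 4.88 and 4.87 in SS64 NC and 3.16, 3.27, 3.09 and 3.24 with *miR-214*. In SS40 it read 3.03, 3.07, 2.99 and 2.91 in NC and 3.06, 2.96, 3.22 and 3.24 with *miR-214*. Only the SS64 NC arrays thus stood above background, and with *miR-214* the SS64 values overlapped those of SS40, a change of −1.56 ± 0.09 (SE) against 0.12 ± 0.09 and a difference of −1.67 ± 0.12 (adjusted p = 2.94e-06, limma).

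*AF067061* read 6.37, 6.65, 6.65 and 6.41 in SS64 NC and 4.52, 4.79, 4.53 and 4.77 with *miR-214*, a 3.65-fold fall, against 3.88 to 4.21 on the 8 SS40 arrays. *BC080696* read 6.38, 5.91, 6.35 and 6.12 in SS64 NC and 4.27, 4.34, 4.14 and 3.97 with *miR-214*, a 4.03-fold fall, against 3.08 to 3.38 in SS40. The differences were −1.98 ± 0.13 (adjusted p = 1.29e-06) and −1.90 ± 0.15 (adjusted p = 4.94e-06, limma), and both genes kept a level above SS40 with *miR-214*. *Usp17la*, of a family of deubiquitinating enzymes, read 6.66, 6.46, 6.79 and 6.81 in SS64 NC and 5.05, 5.10, 4.89 and 5.03 with *miR-214*, and 4.43 to 5.13 in SS40. *Gm13043* (−1.21 in SS64), *D13Ertd608e* (−1.26), *Gm20767* (−0.76) and *Zscan4a* (−0.79) fell from NC means of 6.11, 5.32, 4.19 and 4.99. The rule itself asks that the change in SS40 not pass, and the SS40 changes of the 8 ranged from −0.19 to 0.14.

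Of the other 10 genes of the list, none passed in either line, and *Zfp352*, *Dppa2*, *Dppa4* and *Zfp42*, which are also linked to early embryos, had SS64 NC means of 4.34, 3.61, 4.17 and 3.05. *Tcstv3* (3.86 in SS64 NC and 3.55 with *miR-214*) and *AF067063* (4.32 and 4.11) had changes of −0.31 and −0.21 that did not pass. For the 8 fallers the 4 SS64 NC arrays lay above every one of the other 49 arrays of the series. Those of SS40 and of SS64 *miR-214* took part in the choice of these genes, so the separation from them is largely built in. The rest are tumors with and without *miR-214*, embryonic mesenchymal cells and a normal tissue mix. There the highest values of *Tcstv1*, *AF067061*, *BC080696* and *Usp17la* were 3.26, 4.14, 3.35 and 5.09. *AF067063*, which did not pass, lay apart as well (lowest SS64 NC array 4.29, highest other array 4.18). The highest other array read 3.27 for *Tcstv1*, 4.79 for *AF067061* and 4.34 for *BC080696*, each of them in SS64 *miR-214*, and 5.13 for *Usp17la* in SS40 NC. Array values do not distinguish a low level in all SS64 cells from a high level in few of them. These genes have near-identical copies that the probes may share, so that a probe set stands for its family as much as for the gene named. The mean levels of the 8 fallers over the 8 SS64 arrays, 3.80 to 5.85, stayed under the expression threshold used below. Those means include the lowered *miR-214* arrays. The SS64 NC means of *AF067061* (6.52) and *Usp17la* (6.68) lay above that threshold of 6.21, and those of the other fallers did not.

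**Figure D2:**
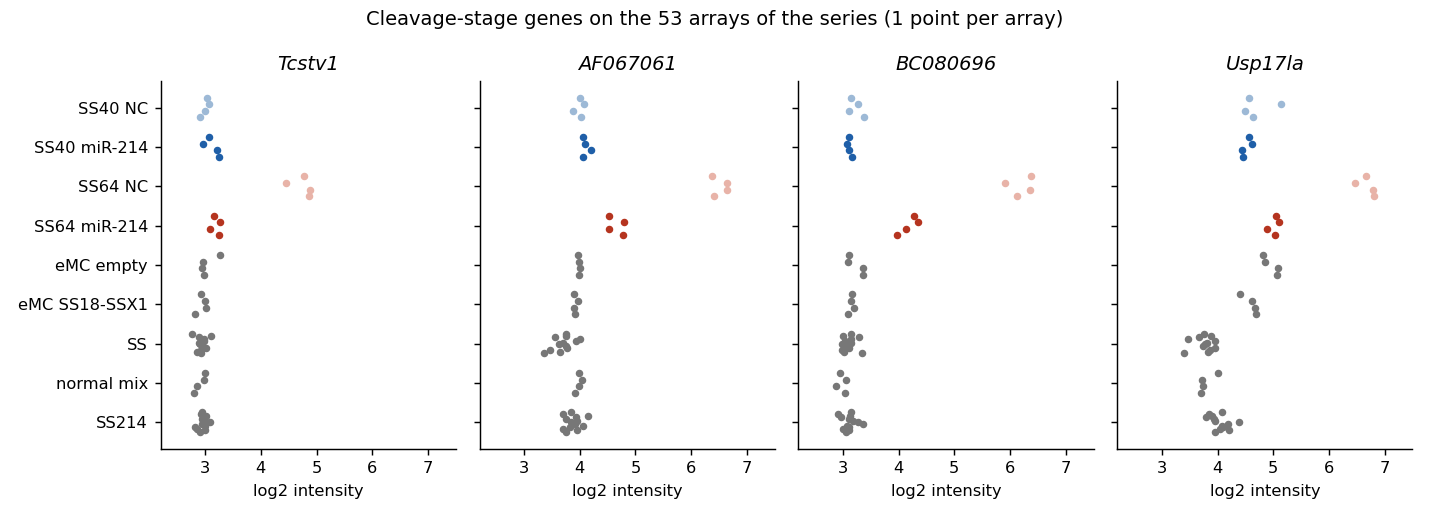
Each point is the log2 intensity of 1 of the 53 arrays of the series for the 4 cleavage-stage genes with the largest difference between the lines, with 1 line of points per group (NC, negative control; eMC, embryonic mesenchymal cells; SS and SS214, tumors without and with *miR-214*). The 4 SS64 NC arrays lie to the right of all others in every panel, at 4.46 or more for *Tcstv1*.

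*D13Ertd608e*, *Tcstv1*, *Gm20767* and *AF067061* lie within 419 kb on chromosome 13, between 119845361 and 120264517 in GRCm38.p6, a stretch bounded by these genes themselves. *AF067063* and *Tcstv3*, which did not pass, flank it on either side. The other 4 lie elsewhere, *BC080696* on chromosome 5, *Gm13043* on chromosome 4, and *Usp17la* and *Zscan4a* on chromosome 7. Promoters were at hand for 3 of the 8, from 250 bases before to 50 after the start. They are shown because these genes moved together, with matches to GATTNAAT on either strand in capitals, the core letters of the motif of DUX, a homeobox activator of cleavage-stage genes. The promoter of *AF067061* is chr13:120262845-120263144 and that of *Gm13043* chr4:143511093-143511392, both on the plus strand in RefSeq, GRCm38.p6.
AF067061: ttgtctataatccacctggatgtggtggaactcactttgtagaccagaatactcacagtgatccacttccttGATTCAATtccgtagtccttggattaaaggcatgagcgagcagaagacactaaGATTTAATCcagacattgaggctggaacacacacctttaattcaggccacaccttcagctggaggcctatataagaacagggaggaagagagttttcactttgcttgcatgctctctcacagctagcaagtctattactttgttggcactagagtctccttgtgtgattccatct
Gm13043: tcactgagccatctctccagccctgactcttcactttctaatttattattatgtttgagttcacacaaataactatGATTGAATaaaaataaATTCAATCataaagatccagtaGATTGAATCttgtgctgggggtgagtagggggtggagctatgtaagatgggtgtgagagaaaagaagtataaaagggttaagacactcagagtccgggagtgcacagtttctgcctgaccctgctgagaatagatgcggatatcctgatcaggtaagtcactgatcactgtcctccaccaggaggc
*AF067061* held 2 separate stretches and *Gm13043* 3. The last stretch of each is 1 base longer since matches of both strands overlap there. The promoter of *Usp17la* held no match, and the same letters occurred in 1.96% of 32851 promoters of that length. The full motif, which adds letters on either side of this core, was searched as well. It occurred in none of the promoters of *AF067061*, *Gm13043* and *Usp17la*, and in 0.0335% of the 32851. Whether DUX acts on these genes was not tested. A match is a description of the letters and not a binding site.

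Another set of SS64 fallers came from lists of Schwann cell, neural crest and pigment genes, also chosen after values were seen. *Lgi4*, a secreted factor of Schwann cell myelination, read 7.99, 8.21, 8.31 and 8.46 in SS64 NC and 7.42, 7.27, 6.78 and 7.22 with *miR-214*, a 2.10-fold fall, and 3.95 to 4.47 on all SS40 arrays. *Gpnmb*, a glycoprotein of melanosomes and lysosomes, fell 2.28-fold from 7.03 ± 0.14 to 5.85 ± 0.04 and was 5.33 and 5.37 in SS40. *Fabp7*, a fatty acid binding protein of glial precursors, fell 2.13-fold from 5.02 to 3.93. *Mlph* and *Rab38*, which serve melanosome transport and cargo, fell by 0.70 ± 0.13 and 0.73 ± 0.10 from 8.26 and 6.92. *Gjc3*, a glial connexin (−0.59 ± 0.08), *Igsf11*, an adhesion protein of pigment cells (−0.75 ± 0.12), and *Hyal1*, a hyaluronidase (−0.95 ± 0.11), fell as well. Of the 31 genes 8 were in these lists, which held 18 and 15 measured genes, against 0.181% of all genes that met the rule. That count follows from the choice of the lists and is no result about these cell types. *Gpm6b*, a neural membrane glycoprotein, had changes of 0.45 in SS40 and −0.28 in SS64, which passed in SS40 alone.

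Regulators of those lineages had no change that passed. *Sox10*, the neural crest and Schwann cell factor, had SS64 means of 9.60 in NC and a change of −0.01 ± 0.10 (SE, adjusted p = 0.997, limma). The neuregulin receptor *Erbb3* (0.37 ± 0.16), the neurotrophin receptor *Ngfr* (−0.01 ± 0.15) and the factors *Foxd3* (−0.02 ± 0.20) and *Tfap2a* (−0.25 ± 0.12) had NC means of 10.49, 10.40, 8.08 and 9.45 in SS64, and none of the changes passed. None of the 5 was expressed in SS40, where the line means were 4.39 to 5.38. *Mbp*, *S100b*, *Pmel*, *Tyr* and *Dct*, markers of myelin and pigment, had levels of 4.32, 4.21, 5.74, 3.89 and 4.04 in SS64, under the expression threshold. *Pmp22*, a further myelin gene of these lists, was expressed in both lines, at 8.05 in SS40 and 10.09 in SS64. It fell in both, with changes of −0.53 in SS40 and −0.43 in SS64. The changes of *Itga4* (−0.37) and *Rab32* (−0.42), also on these lists, passed in SS64. For *Pmp22*, *Itga4* and *Rab32* the difference between the lines did not pass.

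The remaining SS64 fallers with the largest differences were *Efhd1*, a mitochondrial calcium-binding protein, and *Ntn1*, the guidance cue netrin 1. *Efhd1* read 7.37, 7.37, 7.42 and 7.44 in SS64 NC and 6.01, 6.15, 6.18 and 5.98 with *miR-214*, and 4.87 to 5.52 in SS40. *Ntn1* was present in both lines and read 7.42, 7.40, 7.32 and 7.45 in SS64 NC against 6.59, 6.59, 6.23 and 6.40 with *miR-214*. Its SS40 values were 6.54, 6.17, 6.37 and 6.58 in NC and 6.84, 6.76, 6.73 and 6.43 with *miR-214*, which overlapped. The second probe set of *Ntn1* gave a difference of −0.13 against −1.22, at a mean level of 4.00, which leaves little room for a fall. *Acot1* (−1.20 ± 0.12) and *Acot2* (−0.91 ± 0.10), neighbouring acyl-CoA thioesterase genes with near-identical sequence, fell from 6.50 and 7.25, and transcripts of either may reach the probes of the other.

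The rises assigned to SS64 numbered 7, and *Gap43* had the largest difference. *Gap43*, a protein of growing axon tips, read 6.77, 6.85, 6.75 and 6.58 in SS64 NC and 8.40, 8.24, 7.92 and 8.21 with *miR-214*, a 2.74-fold rise. In SS40 it read 8.70, 8.31, 8.87 and 8.82 in NC and 9.12, 9.14, 9.10 and 8.56 with *miR-214*. The raised SS64 values thus reached the range of the lower SS40 arrays, and the SS40 groups overlapped through replicate 4. *Stmn4*, a neuronal stathmin, rose 2.24-fold from 5.16 ± 0.10 to 6.32 ± 0.12, and was 4.90 and 5.06 in SS40. *Ntm*, an adhesion molecule of neurons, rose 1.73-fold from 7.07 and was 4.37 and 4.42 in SS40. *Ak4*, a mitochondrial adenylate kinase, read 5.66, 5.88, 6.20 and 5.78 in SS64 NC and 6.94, 7.11, 7.17 and 7.09 with *miR-214*, below 7.57 to 7.96 in SS40, and its 4 other probe sets gave differences of −0.17 to 1.06. *Cav2* (0.83 ± 0.11), a caveolin, *Wwc1* (0.60 ± 0.08), the Hippo pathway scaffold KIBRA, and *Cgref1* (0.88 ± 0.09), a secreted calcium-binding protein, rose from 10.14, 7.95 and 6.08. Without NC replicate 2 of SS64 the class held 3 genes, without *miR-214* replicate 1 or 3 of SS64 it held 4, and without *miR-214* replicate 4 of SS40 it held 14.

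**Figure D3:**
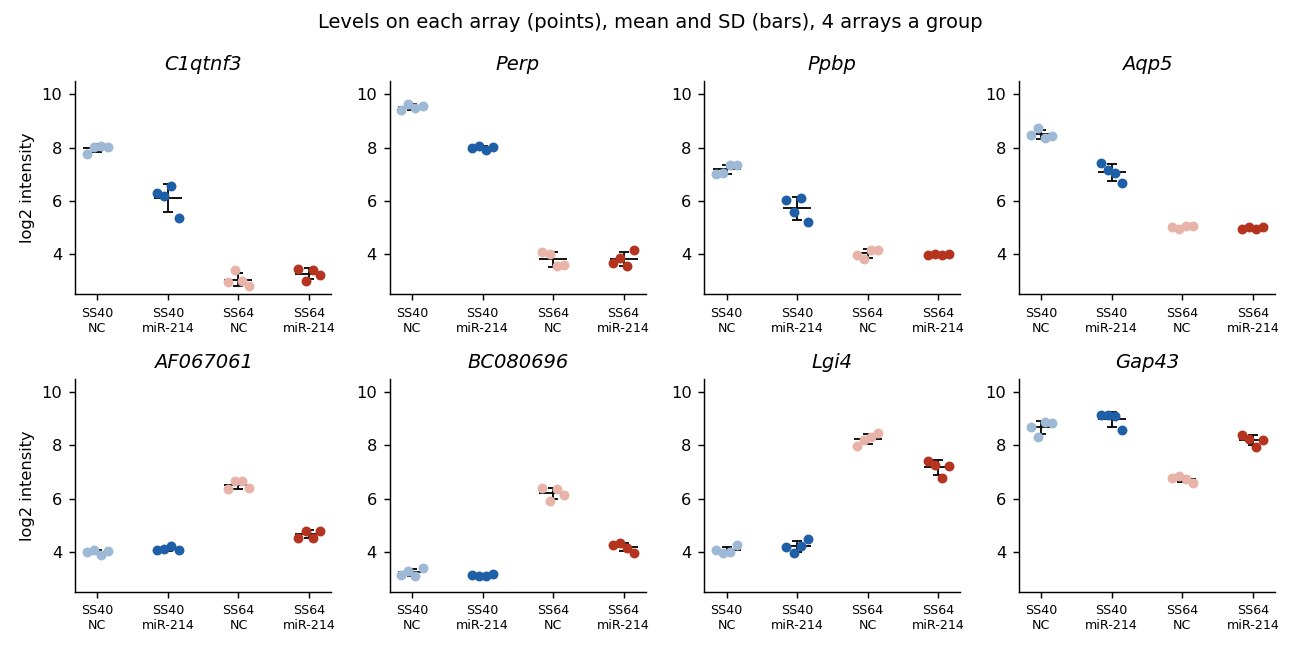
Points are log2 intensities on single arrays, with horizontal bars for the mean of 4 arrays and error bars for the SD, in the order SS40 NC, SS40 *miR-214*, SS64 NC and SS64 *miR-214*. In the upper row the genes fell in SS40 and lay at 2.80 to 5.06 in SS64. In the lower row *AF067061*, *BC080696* and *Lgi4* fell and *Gap43* rose in SS64.

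Whether a 1-line gene was expressed in the other line was read from its mean level over the 8 arrays of that line, NC and *miR-214* together, a value that does not enter the difference of changes. A gene counted as expressed above 5.96 in SS40 or 6.21 in SS64, the 95th percentile of 60 genes limited to other tissues, which 46.0% and 43.3% of all genes passed. Of the 33 genes that fell in SS40 only, 5 were expressed in SS64 (15.2%, 95% exact interval 5.11 to 31.9), namely *Ampd3*, *Ccl9*, *Fhl1*, *Fhl2* and *Npnt*. Of the 31 that fell in SS64 only, 5 were expressed in SS40 (16.1%, interval 5.45 to 33.7), namely *Ddhd2*, *Gadd45a*, *Mxd4*, *Ntn1* and *Wdyhv1*. The level was higher in the responding line for 30 of 33 and 28 of 31 of these genes, with a median difference of 1.79 and 1.09 on the log2 scale. Over all genes, 9190 of 17097 had the higher level in SS40, and the median absolute difference between the lines was 0.174. A higher level in the responding line is in part built in, since a fall over 1.5-fold needs signal in the line that responds. A gene near the floor has little room to fall on this scale, so a missing fall and a missing message cannot be told apart there.

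Of the 7 that rose in SS64 only, 5 were expressed in SS40, and of the 4 that rose in SS40 only, 2 were expressed in SS64, which makes 7 of 11 in all. The median level difference, responding minus other line, was −0.41 for the former and −0.68 for the latter. Whether rises and falls differ in this respect was not tested. In all, 17 of the 75 genes were expressed in the other line, where their change did not pass but is not shown to be absent. The threshold is strict, since 13 of the SS40 fallers and 15 of the SS64 fallers passed it in neither line. The level also averages NC with the lowered *miR-214* arrays, so a fall itself pulls it down. Among these genes some NC means passed, such as *Il7* (6.07) and *Omd* (6.27) in SS40 and *AF067061* (6.52) and *Usp17la* (6.68) in SS64. Others did not, such as *Tcstv1* (4.75 in SS64). At the 80th percentile of the reference genes, 4.79 in SS40 and 4.78 in SS64, which 60.3% and 59.3% of genes passed, 10 of 33 and 10 of 31 fallers were expressed in the other line, and the 33 were all expressed in SS40.

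**Figure D4:**
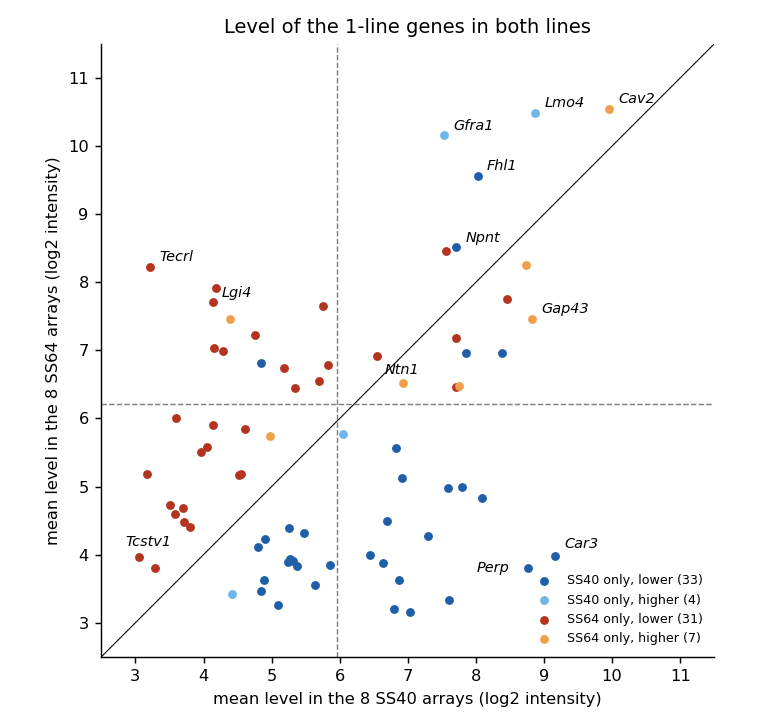
Each point is 1 of the 75 genes assigned to 1 line, with its mean log2 intensity over the 8 SS40 arrays on the horizontal and the 8 SS64 arrays on the vertical axis. The diagonal marks equal levels and the dashed lines the thresholds of 5.96 and 6.21. Genes that fell in SS40 lie mostly below the diagonal and genes that fell in SS64 mostly above it.

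*Fhl1* and *Fhl2* encode LIM-only proteins that bind transcription factors and the cytoskeleton. *Fhl1* read 8.47, 8.50, 8.30 and 8.29 in SS40 NC and 7.90, 7.84, 7.78 and 7.14 with *miR-214*, but 9.43, 9.42, 9.40 and 9.42 in SS64 NC and 9.75, 9.70, 9.73 and 9.66 with *miR-214*. In SS64 the *miR-214* arrays thus lay apart on the higher side (0.29 ± 0.12, adjusted p = 0.337, limma). The second probe set of *Fhl1* gave a difference of 0.03 against 1.02, at a mean level of 3.37, under the floor. *Fhl2* fell in SS40 by 0.67 ± 0.10 from 8.19, and its SS64 *miR-214* arrays also lay apart on the higher side (0.24 ± 0.10, adjusted p = 0.299, limma). *Npnt*, the integrin ligand nephronectin, fell 2.24-fold in SS40 from 8.29, with −0.34 ± 0.12 from 8.69 in SS64, and *Ampd3*, an AMP deaminase, fell 1.93-fold from 5.32 in SS40 with −0.20 ± 0.11 from 6.91 in SS64. On the SS64 side, the growth arrest gene *Gadd45a* fell by 0.65 ± 0.08 from 8.79 with −0.02 ± 0.08 from 7.58 in SS40. *Mxd4*, an antagonist of MYC, fell by 0.93 ± 0.08 in SS64 with −0.25 ± 0.08 in SS40, *Ddhd2*, a phospholipase, by 0.84 ± 0.08 with −0.29 ± 0.08, and *Wdyhv1*, an amidohydrolase of the N-degron pathway, by 1.11 ± 0.11 with −0.40 ± 0.11. For these last 3 the SS40 arrays also lay apart on the lower side, with changes that did not pass. With the mean over probe sets the difference was −0.20 for *Mxd4* (adjusted p = 0.517), −0.17 for *Ddhd2* (adjusted p = 0.694) and −0.46 for *Wdyhv1* (adjusted p = 0.274, limma), and none of the 3 calls held.

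Over all 123 genes, 57 were expressed in both lines (57 of 6963 such genes, 0.819%), 21 in SS40 alone, 14 in SS64 alone and 31 in neither. No gene passed in both lines with opposite signs and over 1.5-fold. With no fold threshold there were 5, *Col3a1*, *Serpinf1* and *AI413582* higher in SS40 and lower in SS64, and *Deptor* and *Pkdcc* the other way. *Col3a1*, the type III collagen of loose connective tissue, read 10.31, 10.19, 10.45 and 10.44 in SS40 NC and 10.89, 10.92, 11.01 and 10.99 with *miR-214*. It read 11.46, 11.49, 11.49 and 11.46 in SS64 NC and 11.22, 11.23, 11.25 and 11.21 with *miR-214*. The groups did not overlap in either line, and the changes of 0.61 ± 0.05 (SE) and −0.25 ± 0.05 brought the lines to 10.95 and 11.23 from 10.35 and 11.48 (difference −0.86 ± 0.08, adjusted p = 3.04e-05, limma). The second probe set gave −0.71.

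*Deptor*, an inhibitor of mTOR, read 6.46, 6.63, 6.59 and 6.77 in SS40 NC and 6.02, 6.00, 5.93 and 6.47 with *miR-214*, which overlapped through replicate 4. It read 6.99, 6.86, 6.97 and 7.04 in SS64 NC and 7.57, 7.63, 7.53 and 7.65 with *miR-214*. The difference of 1.13 ± 0.15 passed (adjusted p = 0.00122, limma), and without that array *Deptor* passed over 1.5-fold in both lines with opposite signs. *Serpinf1*, the antiangiogenic pigment epithelium-derived factor, changed by 0.49 ± 0.07 in SS40 from 9.23 and by −0.35 ± 0.07 in SS64 from 8.46. Its second probe set gave 0.03 in SS40 and −0.23 in SS64, a difference of −0.26 that did not pass. *Pkdcc*, a secreted tyrosine kinase, changed by −0.56 ± 0.13 from 9.70 and by 0.60 ± 0.13 from 4.75, and was not expressed in SS64. Its second probe set gave −0.47 in SS40 and 0.02 in SS64, a difference of 0.50 that did not pass. *AI413582*, of no known role, changed by 0.33 ± 0.08 from 6.85 and −0.44 ± 0.08 from 8.60. Without NC replicate 4 or *miR-214* replicate 1 or 2 of SS40, *Pkdcc* was over 1.5-fold in both lines.

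*Id2* and *Id3* encode inhibitors of helix-loop-helix factors that BMP signals induce, and were expressed in both lines. *Id3* read 10.86, 10.85, 10.79 and 10.74 in SS64 NC and 10.34, 10.34, 10.33 and 10.37 with *miR-214*, a fall of 0.47 ± 0.05, whereas SS40 read 11.11, 11.11, 11.15 and 11.09 in NC and 11.20, 11.20, 11.22 and 11.43 with *miR-214*. *Id2* fell by 0.48 ± 0.08 in SS64 and changed by 0.28 ± 0.08 in SS40, where it did not pass. The differences were −0.62 ± 0.08 (adjusted p = 0.000626) and −0.76 ± 0.11 (adjusted p = 0.00264, limma), while *Id1* (0.22) and *Id4* (−0.43), added after values were seen, had none that passed. *Dusp6*, the ERK phosphatase, rose by 0.46 ± 0.07 in SS40 from 7.93 and had −0.10 ± 0.07 in SS64 from 10.56, and the factor *Etv5* rose by 0.40 ± 0.09 in SS40 from 7.00 with −0.32 ± 0.09 from 9.04. *Spry2*, an inhibitor of the same pathway, rose by 0.72 ± 0.09 in SS40 with 0.15 ± 0.09 in SS64, and its difference missed the threshold (adjusted p = 0.0655, limma). Of 12 genes of ERK feedback, a list chosen after values were seen, only the differences of *Dusp6* and *Etv5* passed, against 0.719% of all genes. That count follows from the choice of the list. Within SS40, 3 members of that list rose and 2 fell, *Dusp4* (−0.39) and *Ier3* (−0.21), where 0.918% of all genes rose and 2.37% fell.

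**Figure D5:**
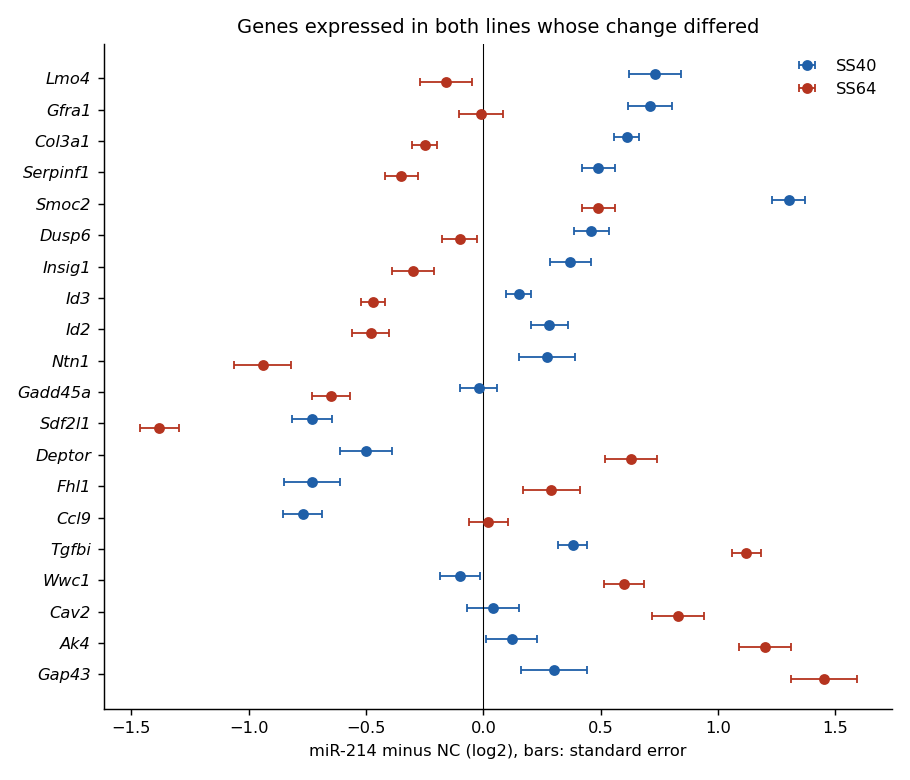
Points are *miR-214* minus NC changes on the log2 scale for 20 genes expressed in both lines whose change differed between them, SS40 in blue and SS64 in red, with bars of 1 standard error from the 16-array fit. *Col3a1*, *Serpinf1* and *Deptor* passed on opposite sides of 0, and *Sdf2l1*, *Smoc2* and *Tgfbi* moved the same way in both lines with a difference that passed.

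In several genes both lines moved the same way and the difference passed. *Prl2c2*, the prolactin-related growth factor proliferin, read 8.92, 9.01, 9.01 and 8.95 in SS40 NC and 6.52, 6.78, 7.36 and 6.56 with *miR-214*, a 4.49-fold fall. In SS64 it read 12.64, 12.63, 12.51 and 12.62 in NC and 11.92, 11.88, 11.82 and 11.87 with *miR-214*, a 1.66-fold fall. Whether the high SS64 signal compresses the fall there was not tested, so the sizes may not be comparable. The difference was 1.44 ± 0.18 (adjusted p = 0.000665, limma), and its copies in the proliferin family may share the probes. *Sdf2l1*, a cofactor of endoplasmic reticulum chaperones, fell by 0.73 ± 0.08 in SS40 and by 1.38 ± 0.08 in SS64. *Smoc2*, a matricellular calcium-binding protein, rose by 1.30 ± 0.07 in SS40 and by 0.49 ± 0.07 in SS64, and *Tgfbi*, a TGF-beta-induced matrix protein, by 0.38 ± 0.06 and 1.12 ± 0.06. *Col4a5*, a basement membrane collagen chain, rose by 0.72 ± 0.11 from 7.71 in SS40 and by 1.49 ± 0.11 from 4.91 in SS64, but its second probe set gave a difference of −0.04.

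Of 29 gene lists, 13 had a member whose change differed between the lines, with at most 3 members each, where 0.719% of all genes differed. No set was tested, so these counts are no result about the lists. The medians of the difference ran from −0.19 to 0.22, against −0.00 over all genes. The 10 measured candidate targets of *miR-214* that the study picked on its 2 lines gave no difference that passed. The list was chosen on what are taken to be these lines, so its direction is not independent evidence. *Ezh1*, *Foxo4*, *Nomo1*, *Tpp1*, *Plagl2* and *Chfr* fell in both lines, with differences of −0.09, −0.23, −0.22, −0.36, 0.06 and −0.12. At their brightest probe sets *Timp2*, *Fbxo3*, *Lats2* and *Cbl* passed in neither line, with differences of −0.07, 0.11, 0.42 and 0.11. The difference of *Lats2* had an SE of 0.30. The other probe sets of *Timp2* all fell, by 0.51 to 0.79 in SS40 and 0.89 to 1.03 in SS64, so *Timp2* is not shown to be unchanged. Their differences of −0.12 to −0.47 did not pass. Another probe set of *Fbxo3* gave −0.92 in SS40 and −0.87 in SS64, and its remaining ones −0.12 to 0.16 and −0.18 to −0.01.

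Of the 9 measured cytokine genes that the study tabulated in tumors, *Ppbp* and *Ccl9* differed between the lines as given above. *Ccl2*, a monocyte chemokine, fell by 0.48 in SS40 and 0.78 in SS64 from high levels in both (difference −0.30), and *Ccl7* fell by 0.99 and 0.78 (difference 0.21). *Cxcl15*, *Ccl6*, *Ccl11*, *Cxcl9* and *Pf4* were not expressed in either line, with differences of 0.02, 0.13, −0.16, −0.14 and 0.01. Of 34 cytokine and chemokine genes in all, 5 fell in SS40 and 5 in SS64, and of 31 interferon-stimulated genes, 4 and 6 fell and none differed between the lines. Over all genes 2.37% fell in SS40 and 2.91% in SS64.

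Of 18 cholesterol synthesis genes, 7 rose in SS40 and 1 in SS64 (medians 0.25 and 0.11, against 0.918% and 1.39% of all genes that rose), and *Insig1*, the sterol-regulated brake of that pathway, had the only difference that passed (0.37 in SS40, −0.30 in SS64, difference −0.67 ± 0.12). Of 21 hypoxia and glycolysis genes, none passed in SS40 and 5 rose and 1 fell in SS64 (medians 0.05 and 0.22), with no difference that passed, so that these counts do not show a difference between the lines. Among 36 cell cycle genes, *Mki67*, the proliferation antigen Ki-67, fell by 0.27 ± 0.06 in SS40 with 0.12 ± 0.06 in SS64, and among 14 genes of NF-kappaB feedback *Nfkbiz* fell by 0.55 ± 0.10 in SS40 with 0.21 ± 0.10 in SS64. *Thbs2*, a matrix thrombospondin, rose by 0.33 ± 0.05 in SS40 with −0.05 ± 0.05 in SS64. *Cald1*, the actin-binding protein caldesmon, fell by 0.37 ± 0.07 in SS40 with 0.17 ± 0.07 in SS64, but its 4 other probe sets gave differences of −0.41 to 0.31 against 0.53. No member of the lists for RNA sensing, ATF4 response, heat shock, YAP targets, Wnt targets, cartilage or skeletal muscle differed between the lines. Of the other probe sets of the 123 genes with a mean level over 5, 40 of 45 gave a difference of the same sign as the brightest one, and 4 passed on their own.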

How the data were processed

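Arrays of 2 mouse synovial sarcoma lines grown in serum medium and transfected with *miR-214* or a negative control (NC) were compared, 4 arrays a group. The deposited values are linear intensity values per probe set of a 3′ expression array, which the authors summarized and scaled between arrays. The submitters' processing notes name MAS5 without a version, and the methods name GeneSpring. No columns of the authors' own comparisons were used.

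Values were taken as log2, 104 control probe sets were left out, and 45037 probe sets were fitted in limma 3.58.1 (R 4.3.3, lmFit and eBayes with a trend) with 4 group means, each line's change and their difference as contrasts, and Benjamini-Hochberg adjustment over all probe sets. For each gene the brightest of the probe sets with exactly 1 symbol was used (28898 probe sets, 17097 genes, while 551 had several symbols and 15588 none, and 28689 symbols were updated by gene ID to RefSeq, GRCm38.p6). Named genes were the 8 with the largest difference in each 1-line class whose arrays did not overlap in the responding line, up to 6 opposite ones, the study's candidate targets and cytokines, and up to 4 called members of each list, with further genes chosen after their values were seen. Members and lists were chosen with earlier results of these data known. On simulated data the difference recovered 20, 38, 45 and 49 of 50 probe sets changed by 0.6, 1, 1.6 and 2 on the log2 scale, with 13 false calls among 45037. The simulation drew independent noise with the same SD in every group and changed only probe sets of high mean level. It held no deviant array, so its rates need not hold for the unequal spread and the weak genes here. Exact intervals of shares (95%) cover counting error only. They treat genes as independent, although the genes share arrays and some moved together, so they may be too narrow. The 4 arrays a group limit the precision. No arrays held identical values. The alternatives were quantile normalization, a floor with a filter on low values, a fit of all 53 arrays, each line fitted alone, no moderation of the variance, a replicate block, the mean over probe sets, other fold and expression thresholds and each array left out, with array weights and a block in SS64 alone added after the data were seen. Python 3.11.15 and matplotlib 3.10.9 served for the plots.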

Additional observations from a re-analysis of the deposited data

Results flagged for a closer look

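Of 360 groups of 4 arrays among the genes named, 22 held 1 array whose gap to its nearest neighbour exceeded Dixon's 95% critical value over the range of the group, where chance gives about 1 in 20. Of these, 10 fell on *miR-214* replicate 4 of SS40, the array that stood apart in general. On NC replicate 1 of SS40 the level was 7.75 for *C1qtnf3*. On *miR-214* replicate 4 of SS40 the level was 7.92 for *Car3*, 8.56 for *Gap43*, 9.69 for *Tpp1*, 7.84 for *Cbl*, 11.43 for *Id3*, 11.22 for *Cald1*, 6.47 for *Deptor*, 9.78 for *Smoc2*, 7.14 for *Fhl1* and 3.94 for *Igsf11*. On NC replicate 2 of SS40 the level was 8.33 for *Angptl7*, 9.77 for *Tpp1*, 7.38 for *Gadd45a* and 3.97 for *Mlph*. On *miR-214* replicate 4 of SS64 the level was 8.50 for *Fbxo3*. On *miR-214* replicate 3 of SS40 the level was 4.43 for *Ccl6* and 8.31 for *Col4a5*. On *miR-214* replicate 3 of SS64 the level was 6.88 for *Ccl9*. On NC replicate 1 of SS64 the level was 3.10 for *Ccl11*. On NC replicate 3 of SS64 the level was 5.72 for *Ccl7* and 12.51 for *Prl2c2*.

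The change after *miR-214* differed between the lines, by limma's test of the difference, in 73 of the named genes. The difference, SS64 minus SS40 on the log2 scale, was positive in *C1qtnf3* (2.10), *Car3* (1.56), *Perp* (1.52), *Il7* (1.47), *Prl2c2* (1.44), *G730013B05Rik* (1.43), *Ppbp* (1.42), *Aqp5* (1.39), *Angptl7* (1.35), *Pkdcc* (1.16), *Gap43* (1.15), *Deptor* (1.13), *Ak4* (1.07), *Fhl1* (1.02), *Stmn4* (0.99), *Gas6* (0.99), *Tnfrsf11b* (0.96), *Pdgfd* (0.94), *Fhl2* (0.91), *Wnt4* (0.87), *Npnt* (0.83), *Cav2* (0.79), *Ccl9* (0.79), *Col4a5* (0.77), *Nfkbiz* (0.76), *Ntm* (0.75), *Ampd3* (0.75), *Tgfbi* (0.74), *Wwc1* (0.70), *Cgref1* (0.64), *Cald1* (0.53) and *Mki67* (0.39). It was negative in *AF067061* (−1.98), *BC080696* (−1.90), *Tcstv1* (−1.67), *Usp17la* (−1.48), *Efhd1* (−1.33), *Ntn1* (−1.22), *Gpnmb* (−1.22), *Lgi4* (−1.22), *Gm13043* (−1.18), *D13Ertd608e* (−1.15), *Acot1* (−1.09), *Fabp7* (−1.08), *Mlph* (−0.97), *Mertk* (−0.97), *Hyal1* (−0.93), *Gm20767* (−0.91), *Lmo4* (−0.89), *Igsf11* (−0.88), *Acot2* (−0.87), *Zscan4a* (−0.86), *Adcy8* (−0.86), *Col3a1* (−0.86), *Serpinf1* (−0.84), *Smoc2* (−0.80), *Rab38* (−0.80), *AI413582* (−0.77), *Id2* (−0.76), *Etv5* (−0.73), *Gpm6b* (−0.73), *Gfra1* (−0.72), *Wdyhv1* (−0.71), *Mxd4* (−0.68), *Insig1* (−0.67), *Sdf2l1* (−0.65), *Gadd45a* (−0.64), *Id3* (−0.62), *Gjc3* (−0.57), *Arhgap6* (−0.56), *Dusp6* (−0.56), *Ddhd2* (−0.55) and *Thbs2* (−0.38).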

How the results depend on the processing

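The difference between the lines passed for 203 probe sets and 123 genes. Leaving out 1 array gave 138 to 414 probe sets, 84 to 250 genes, 22 to 34 SS40 fallers, 3 to 7 SS40 risers, 23 to 39 SS64 fallers, 3 to 14 SS64 risers and 0 to 1 genes with opposite changes. The highest counts of probe sets, genes and risers came without *miR-214* replicate 4 of SS40. Array weights, chosen after seeing the data, gave 962 probe sets, 538 genes, 55 and 13 genes that fell and rose in SS40 only, 56 and 16 in SS64 only, and 1 opposite gene, *Deptor*. The fit of all 53 arrays gave 82 probe sets and 48 genes, with 10 SS40 fallers, 2 SS40 risers and 3 SS64 risers. Of the 73 named calls it ended 49 with the differences as they were, those of *C1qtnf3*, *Car3*, *Perp*, *Il7*, *Ppbp*, *Aqp5*, *Gfra1*, *Arhgap6*, *Efhd1*, *Gap43*, *Ak4*, *Cav2*, *Ntm*, *Wwc1*, *Cgref1*, *Ccl9*, *Nfkbiz*, *Mki67*, *Sdf2l1*, *Insig1*, *Tgfbi*, *Id3*, *Dusp6*, *Col3a1*, *Thbs2*, *Cald1*, *Tnfrsf11b*, *Serpinf1*, *Deptor*, *AI413582*, *Pkdcc*, *Smoc2*, *Etv5*, *Col4a5*, *Gas6*, *Mertk*, *Wnt4*, *Pdgfd*, *Ampd3*, *Fhl1*, *Fhl2*, *Npnt*, *Ddhd2*, *Gadd45a*, *Wdyhv1*, *Gpm6b*, *Rab38*, *Hyal1* and *Acot1*. SS64 risers numbered 11 after quantile normalization and 3 with the mean over probe sets. A fold over 2 left 18 and 0 in SS40 and 13 and 3 in SS64, and no fold threshold gave 13 SS40 risers and 5 opposite genes. With the median of all probe sets as the expression threshold, 38.7% of SS64 fallers were expressed in SS40. The causes were not tested.

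Same-numbered arrays correlated in their deviations from the group means by −0.33 to 0.56 in SS40 and by 0.37 to 0.52 in SS64, so the numbers did not pair the samples in both lines. With the replicate block 146 probe sets and 86 genes passed, 83 of them among the 123, and with the block in SS64 alone, chosen after seeing the data, 151 and 88. Each block ended 15 named calls, the first those of *Car3*, *Arhgap6*, *Cgref1*, *Nfkbiz*, *Mki67*, *Insig1*, *Dusp6*, *Tnfrsf11b*, *Col4a5*, *Gas6*, *Ampd3*, *Ddhd2*, *Wdyhv1*, *Gjc3* and *Igsf11*, and the second 11 of these and those of *Cav2*, *Ntm*, *Wnt4* and *Gpm6b*. The mean over probe sets ended 16, those of *Gfra1*, *Arhgap6*, *Cav2*, *Ntm*, *Wwc1*, *Nfkbiz*, *Cald1*, *Serpinf1*, *Col4a5*, *Npnt*, *Ddhd2*, *Mxd4*, *Wdyhv1*, *Gjc3*, *Gpm6b* and *Acot2*. The calls of 17 named genes held in every setting, among them *AF067061*, *BC080696*, *Tcstv1*, *Usp17la*, *Lgi4*, *Ntn1*, *Id2* and *Prl2c2*. Only uncalled differences near 0 changed sign: *Cbl* (−0.04), *Fbxo3* (−0.02) and *Plagl2* (−0.03) with the mean over probe sets, *Pf4* (−0.48) with array weights, and, with 1 array left out, *Ccl6* (range −0.11 to 0.34), *Cxcl15* (−0.06 to 0.09), *Plagl2* (−0.03 to 0.19) and *Pf4* (−0.24 to 0.29). Signal near the floor limits what can be seen of weak genes.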
